A study of Mus musculus with 10 samples.

Results

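The genes described here encode the protein parts of the spliceosome that carry the symbols *Snrp*, *Sf3a* and *Sf3b*, and 2 families of splicing regulators, the SR proteins (*Srsf*) and the heterogeneous nuclear ribonucleoproteins (hnRNPs, *Hnrnp*). They were taken by symbol alone: every probe set (a group of short array probes read as 1 value) whose annotation gave a single symbol with one of these beginnings was a member, and a gene was read from its brightest probe set over all 10 arrays. This gave 47 genes with 139 probe sets, of 18193 genes with such a probe set and 45037 probe sets in all. The 16 probe sets with several symbols that include such a name were not used, and *Snrpa*, *Snrpd1* and *Snrpd2* were not analysed here. A single probe set read 12 of the genes and several read the other 35. The 47 genes fell into 6 of the Sm ring, 3 of the U1 and U2 snRNPs, 9 of the SF3A and SF3B complexes, 10 SR proteins and 19 hnRNPs.

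All 10 arrays held RNA of *Max*-null ESCs, male mouse embryonic stem cells of strain 129SV in which both endogenous *Max* alleles are disrupted, and which carry a *Max* cDNA at *ROSA26* under a tetracycline-off system, so that doxycycline (Dox) turns it off. The untreated cells carry the same disrupted alleles and cDNA. In LIF+serum, the conventional medium with leukaemia inhibitory factor, the first set of arrays held untreated cells and cells after 1, 2, 3 and 4 d of Dox, and the second set held another untreated array and cells after 6 and 8 d of Dox. In 2i+LIF, which adds the MEK inhibitor PD0325901 and the GSK3β inhibitor CHIR99021, there were untreated cells and cells after 6 d of Dox. There was 1 array per Dox time. The titles mark 1 untreated array in LIF+serum as a second version and tie no Dox array to either untreated array. The split of the LIF+serum arrays into sets was therefore inferred. No source used here calls the 2 untreated arrays in LIF+serum separate cultures, and p-values then cover no more than the spread among these arrays, which may be technical. All arrays come from 1 inducible cell line, and each is a bulk culture, in which fewer cells of a type and less RNA per cell cannot be told apart.

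The spliceosome removes introns. Sm proteins form a ring on the U1, U2, U4 and U5 small nuclear RNAs, SF3A and SF3B are the parts of the U2 snRNP that hold it on the branch point, SR proteins mark exons and mostly favour their inclusion, and hnRNPs coat nascent transcripts and often oppose it. Many SR and hnRNP genes limit their own level through a transcript variant that is degraded. MAX is the obligate partner of MYC, and MAX dimers bind the E-box CACGTG; splicing genes are often counted among the growth genes that MYC stimulates.

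Values are the authors' log2 values from robust multi-array analysis (RMA), and a fold is taken against the untreated array assigned to the set. The trend is the slope of the log2 value per day of Dox over the 8 arrays in LIF+serum, from limma with the array set as a covariate, with p-values adjusted over all 45037 probe sets. Pluripotency markers were present on every array (*Pou5f1*, which encodes OCT4, lay between 11.92 and 12.99 on the log2 scale). Array medians were 5.26 to 5.33 in LIF+serum and 5.14 and 5.16 in 2i+LIF. The 3′ excess of beta-actin, a measure of RNA shortening, rose from 0.41 on the first untreated array to between 0.52 and 0.56 at 1 to 4 d, and reached 0.88, 1.46 and 1.22 on the untreated, 6 d and 8 d arrays of the second set. In 2i+LIF it was 0.78 untreated and 0.76 with Dox. The 3′ excess of *Gapdh*, the other such control, lay between -0.12 and 0.12 on all 10 arrays. Across the arrays in LIF+serum 2 of 9 fibroblast, 1 of 7 primitive endoderm and 1 of 6 trophectoderm markers rose with days of Dox and none of these lists had a member that fell. Of 10 pluripotency markers, *Nanog* and *Klf4* rose and *Utf1* fell. In LIF+serum the median level of the fibroblast list lay between 4.43 and 5.20, that of the primitive endoderm list between 4.75 and 5.76, and that of the trophectoderm list between 5.62 and 7.62, with the highest at 8 d. The part of these in the results below was not tested.

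Among the 47 splicing genes 1 rose and 3 fell with days of Dox. *Sf3b3* and *Sf3b5*, which encode subunits of SF3B, and *Snrpa1*, which encodes the A′ protein of the U2 snRNP, fell, and *Hnrnph3*, which encodes an RNA-binding protein of the hnRNP H/F family, rose. Over all genes 5.75% rose and 5.33% fell, so the 2.13% and 6.38% of the splicing genes were near or under these shares. At an unadjusted p under 0.05 limma gave 2 genes higher (4.26%, against 13.2% of all genes) and 10 lower (21.3%, against 14.8%). Read from the brightest probe sets and without a test, all 6 Dox arrays in LIF+serum lay below both untreated arrays for 6 of the 47 genes (9.15% of all genes) and above both for 0 (3.63%). All 6 encode proteins of the U2 snRNP: *Snrpa1* and 5 of the 9 SF3A and SF3B genes.

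The promoters of *Snrpa1*, *Sf3b3* and *Hnrnph3* are shown first, since the E-box is the site of MAX dimers. The 250 bases before each annotated start (RefSeq, GRCm38.p6) are printed 5′ to 3′ on the strand of the gene. CACGTG, which reads the same on both strands, would be in capitals, and none of the 3 windows held it.

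*Snrpa1*, chr7:66060086-66060335, plus strand: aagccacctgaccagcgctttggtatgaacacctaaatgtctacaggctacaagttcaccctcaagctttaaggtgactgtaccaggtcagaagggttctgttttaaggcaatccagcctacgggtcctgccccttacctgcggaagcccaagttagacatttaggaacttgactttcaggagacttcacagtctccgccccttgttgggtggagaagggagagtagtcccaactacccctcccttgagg
*Sf3b3*, chr8:110846804-110847053, minus strand: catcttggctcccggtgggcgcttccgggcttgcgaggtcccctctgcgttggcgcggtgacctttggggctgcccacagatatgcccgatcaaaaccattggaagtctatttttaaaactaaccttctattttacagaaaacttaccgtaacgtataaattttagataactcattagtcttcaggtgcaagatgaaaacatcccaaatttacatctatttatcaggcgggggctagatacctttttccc
*Hnrnph3*, chr10:63023850-63024099, minus strand: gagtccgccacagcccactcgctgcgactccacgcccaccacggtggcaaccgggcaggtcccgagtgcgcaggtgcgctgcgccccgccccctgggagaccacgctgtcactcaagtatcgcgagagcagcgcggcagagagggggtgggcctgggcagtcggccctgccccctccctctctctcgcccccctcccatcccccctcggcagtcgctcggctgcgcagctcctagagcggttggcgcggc

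Of the 42 members matched to a promoter entry by symbol (all but *Hnrnpll*, *Hnrnpul2*, *Sf3b4*, *Sf3b5* and *Snrpb*), 4 held CACGTG somewhere in the window from 250 bases before to 50 after a start (*Hnrnpd*, *Hnrnpf*, *Hnrnph2* and *Hnrnpm*), which was 9.52% of them, against 10.2% of the 14452 genes of the array with an entry. A gene with several starts counted once. *Hnrnpd* and *Hnrnpf* held it before the start, and these 2 windows are shown with CACGTG in capitals. For *Hnrnpf* a window of another start that lacked it would not have been shown. None of these 4 genes passed the trend test by its brightest probe set.

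*Hnrnpd*, chr5:99978939-99979188, minus strand: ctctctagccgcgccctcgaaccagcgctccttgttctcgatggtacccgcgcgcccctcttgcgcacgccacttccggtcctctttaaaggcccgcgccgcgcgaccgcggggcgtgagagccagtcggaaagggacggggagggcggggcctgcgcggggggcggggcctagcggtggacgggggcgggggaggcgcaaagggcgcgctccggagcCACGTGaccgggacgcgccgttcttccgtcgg
*Hnrnpf*, chr6:117907554-117907803, plus strand: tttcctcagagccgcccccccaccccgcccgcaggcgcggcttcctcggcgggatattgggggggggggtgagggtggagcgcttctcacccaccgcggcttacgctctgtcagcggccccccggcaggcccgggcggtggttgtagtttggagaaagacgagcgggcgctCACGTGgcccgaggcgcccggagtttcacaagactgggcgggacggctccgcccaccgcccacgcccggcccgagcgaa

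The letters CCGGAAG, the core that ETS factors bind, on either strand, were in the windows of 15 of the 42 members (35.7%, against 15.0% of all genes with an entry), among them *Sf3b3*, *Sf3a1*, *Sf3a2* and *Sf3a3*. The letters GCGGGAA, of the E2F type, were in 7 (16.7%, against 7.95%). These matches describe letters only and were not tested.

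The fall with the smallest p was that of *Sf3b3*, which encodes the large beta-propeller subunit of SF3B. Its value was 11.27 on the first untreated array, 10.79, 10.80, 10.46 and 10.36 after 1, 2, 3 and 4 d of Dox, 11.33 on the second untreated array and 10.41 and 10.32 after 6 and 8 d. Both untreated arrays lay above all 6 Dox arrays. The log2 value changed by -0.15 a day (SE, the standard error, 0.03; limma adjusted p = 0.0128), and the level at 8 d was 0.497-fold that of the untreated array. The call was lost without the second untreated array (adjusted p = 0.263) and over the first set alone (adjusted p = 0.0652), and it held without each of the other 7 arrays in turn. Without the second untreated array the slope was -0.19 and its SE 0.06, so that fit was less precise. The loss of the call there does not show that the fall rests on that array. A second, dimmer probe set of *Sf3b3* lay between 8.27 and 8.34 in the first set and went from 8.13 to 7.65 and 7.70 in the second (slope -0.05, adjusted p = 0.251).

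*Sf3b5*, a small subunit of SF3B, went from 12.33 through 11.95, 11.65 and 11.52 to 11.34 over 1 to 4 d, and from 11.99 to 11.15 and 11.26 at 6 and 8 d. Each day of the first set was lower than the day before, and both untreated arrays lay above all Dox arrays. The slope was -0.13 (SE 0.03, limma adjusted p = 0.0325). *Snrpa1* had almost the same course: 11.20 untreated, 10.83, 10.50, 10.36 and 10.14 at 1 to 4 d, then 11.00 on the second untreated array and 10.26 and 10.27 at 6 and 8 d. Its slope was -0.13 (SE 0.03, limma adjusted p = 0.0337), with 0.482 of the untreated level left at 4 d and 0.602 at 8 d. All 3 probe sets of *Snrpa1* ran downwards, with slopes of -0.13, -0.12 and -0.15 (limma adjusted p = 0.0337, 0.0576 and 0.0254). Without the second untreated array or the 1, 3, 4 or 6 d array *Sf3b5* and *Snrpa1* failed the test (adjusted p as high as 0.273 and 0.252), and *Snrpa1* did so without the 2 d array too. Without the second untreated array their slopes were -0.19 and -0.21, each with an SE of 0.06. Over the first set alone both passed, with slopes of -0.24 and -0.26.

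**Figure D1:**
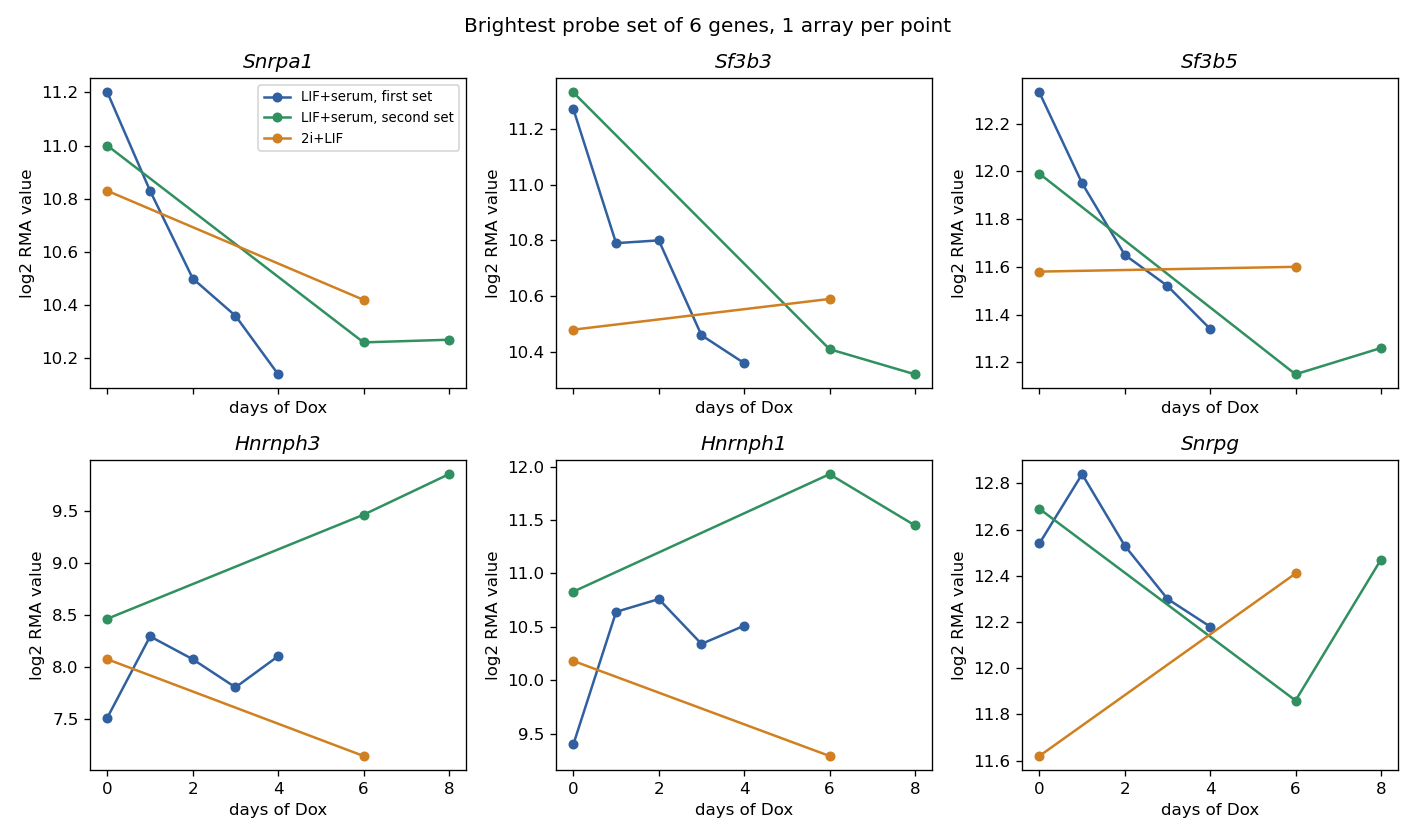
Level (log2 RMA value, y axis) against days of Dox (x axis) for the brightest probe set of 6 genes, with 1 array per point and lines joining arrays of 1 set: first set in LIF+serum (blue), second set in LIF+serum (green) and 2i+LIF (orange). *Snrpa1*, *Sf3b3* and *Sf3b5* were lower on all Dox arrays in LIF+serum than on both untreated arrays, while in *Hnrnph1* and *Hnrnph3* the 2 untreated arrays in LIF+serum differed and the line in 2i+LIF ran the other way.

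The other 7 members of SF3A and SF3B did not pass the trend test. *Sf3a1* had 10.10 untreated and between 9.15 and 9.49 at 1 to 4 d, then 10.25 untreated and 9.49 and 9.67 at 6 and 8 d (slope -0.11, adjusted p = 0.0918 from limma). *Sf3b4*, which binds RNA next to the branch point, had 10.69 untreated and between 10.14 and 10.22 at 1 to 4 d, and 10.66, 10.17 and 10.23 in the second set (adjusted p = 0.193). In the brightest probe sets of *Sf3a1*, *Sf3a2* and *Sf3b4* too, both untreated arrays lay above all 6 Dox arrays, and the levels of *Sf3a2* were 11.27 and 11.24 on these and between 10.63 and 10.94 with Dox. Dimmer probe sets of *Sf3a1* and *Sf3b4* ran otherwise in the second set. Of *Sf3a1*, 1 went from 7.92 untreated to 8.25 and 8.10 at 6 and 8 d and 1 from 6.20 to 6.73 and 6.67, and that of *Sf3b4* went from 8.05 to 8.06 and 8.22. With the mean of its probe sets the slope of *Sf3a1* was -0.03 (adjusted p = 0.479). *Sf3b1*, the subunit that carries the branch point pocket and is often mutated in blood cancers, had 10.56 untreated and 11.02 at 4 d, and 10.88 untreated and 11.09 at 8 d (slope 0.05, adjusted p = 0.276), and it was the member of this group with a positive slope. The median fold of the 9 genes was -0.39 on the log2 scale at 1 d, -0.45 at 2 d, -0.49 at 3 d, -0.43 at 4 d, -0.49 at 6 d and -0.43 at 8 d, while all genes had medians between -0.10 and -0.04. Of the lists described below, the snRNP assembly factors (between -0.69 and -0.23) and the LSm and other U snRNP proteins (between -0.72 and -0.19) were also below 0 throughout. The SR kinases and SR-related genes had medians between -0.04 and 0.40, and the remaining lists between -0.24 and 0.11. With the second untreated array as the reference for 1 to 4 d the medians were -0.27, -0.34, -0.46 and -0.43, and with the first one as the reference for 6 and 8 d they were -0.63 and -0.52. Of the 9 genes, 2 passed the trend test downwards (22.2%, against 5.33% of all genes), and 4 had a negative slope with an unadjusted p under 0.05 (44.4%, against 14.8%).

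The other 2 genes of the U1 and U2 snRNP proteins did not pass. *Snrpb2*, whose protein, B″ of the U2 snRNP, pairs with A′ on the U2 RNA, had 10.21 untreated and between 10.33 and 10.60 at 1 to 4 d, then 10.70 untreated and 10.46 and 10.66 (slope -0.01, adjusted p = 0.872 from limma). *Snrpc*, a U1 protein, had 11.76 and 11.32 on the untreated arrays and between 11.17 and 11.64 on the Dox arrays (adjusted p = 0.938). The difference between these genes and *Snrpa1* was not tested.

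None of the 6 Sm ring genes passed the trend test, with all 6 slopes below 0. At 1 d 4 of the 6 were above their untreated array, while at 4, 6 and 8 d all 6 were below it, with median log2 folds of -0.41, -0.45 and -0.16. Over all genes 41.2% were above it at 1 d, and 41.8%, 44.1% and 46.8% at 4, 6 and 8 d. *Snrpd3* had 10.90 untreated, 11.11 and 11.05 at 1 and 2 d and 10.73 and 10.45 at 3 and 4 d, then 11.54 untreated and 10.59 and 10.86 at 6 and 8 d (slope -0.11, adjusted p = 0.0733 from limma). Its 2 dimmer probe sets went the other way in the second set, from 7.03 to 7.86 and 8.79 and from 5.79 to 6.19 and 6.35. *Snrpg* had 12.54 untreated and 12.18 at 4 d, and 12.69 untreated, 11.86 at 6 d and 12.47 at 8 d (adjusted p = 0.31). Against the first untreated array the group medians at 6 and 8 d were -0.50 and -0.06, and 4 of the 6 were below it at each time. Against the second untreated array the group median at 4 d was -0.59, also with 4 of the 6 below it.

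*Snrpb* and *Snrpn* are a paralogue pair: SmN, the product of the imprinted gene *Snrpn*, can take the place of SmB in the ring. *Snrpb* had 12.22 untreated and between 12.07 and 12.23 at 1 to 4 d, and 11.65 untreated, 11.48 at 6 d and 11.63 at 8 d (slope -0.005, adjusted p = 0.937 from limma). *Snrpn* was read from a single, dim probe set. It had 7.05 untreated, between 6.47 and 6.74 at 1 to 4 d, and 6.18, 5.84 and 5.78 in the second set (slope -0.07, adjusted p = 0.158 from limma). The untreated arrays of *Snrpn* differed by 0.87, more than any Dox array differed from its own untreated array. In 2i+LIF *Snrpn* had 6.21 untreated and 6.07 at 6 d of Dox, and *Snrpb* had 12.23 and 12.15.

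None of the 10 SR protein genes passed the trend test, and at an unadjusted p under 0.05 limma gave 1 higher and 1 lower. *Srsf1*, the founding SR protein, had 11.53 untreated, 11.66 and 11.73 at 1 and 2 d, and 11.31 and 11.06 at 3 and 4 d, then 11.82 untreated and 11.35 and 11.50 (slope -0.07, adjusted p = 0.245 from limma). *Srsf6* had a like course, with 11.39 untreated, 10.88 at 4 d, 11.55 on the second untreated array and 11.28 at 8 d (adjusted p = 0.236). *Srsf4* had 9.90 and 10.25 untreated and between 9.56 and 9.95 with Dox (adjusted p = 0.157). *Srsf10*, a regulator whose activity depends on dephosphorylation, lay above its untreated array in the first set and below it in the second: 8.37 untreated against 8.90, 9.29, 8.50 and 9.03, then 9.74 untreated against 9.54 and 8.94. Its untreated arrays differed by 1.38, and its 1 to 4 d values all lay between them. *Srsf9* ran the opposite way, from 9.94 to between 9.35 and 9.46 in the first set and from 10.48 to 10.61 and 10.74 in the second. The difference between the sets had an adjusted p of 0.386 for *Srsf10* and 0.301 for *Srsf9* from limma, and no gene passed that test. At an unadjusted p under 0.05, 1 splicing gene was higher (2.13%, against 6.62% of all genes) and 2 were lower (4.26%, against 7.49%). *Srsf12*, the only one of the 47 genes that did not reach 6 on any array, lay between 2.51 and 3.71.

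**Figure D2:**
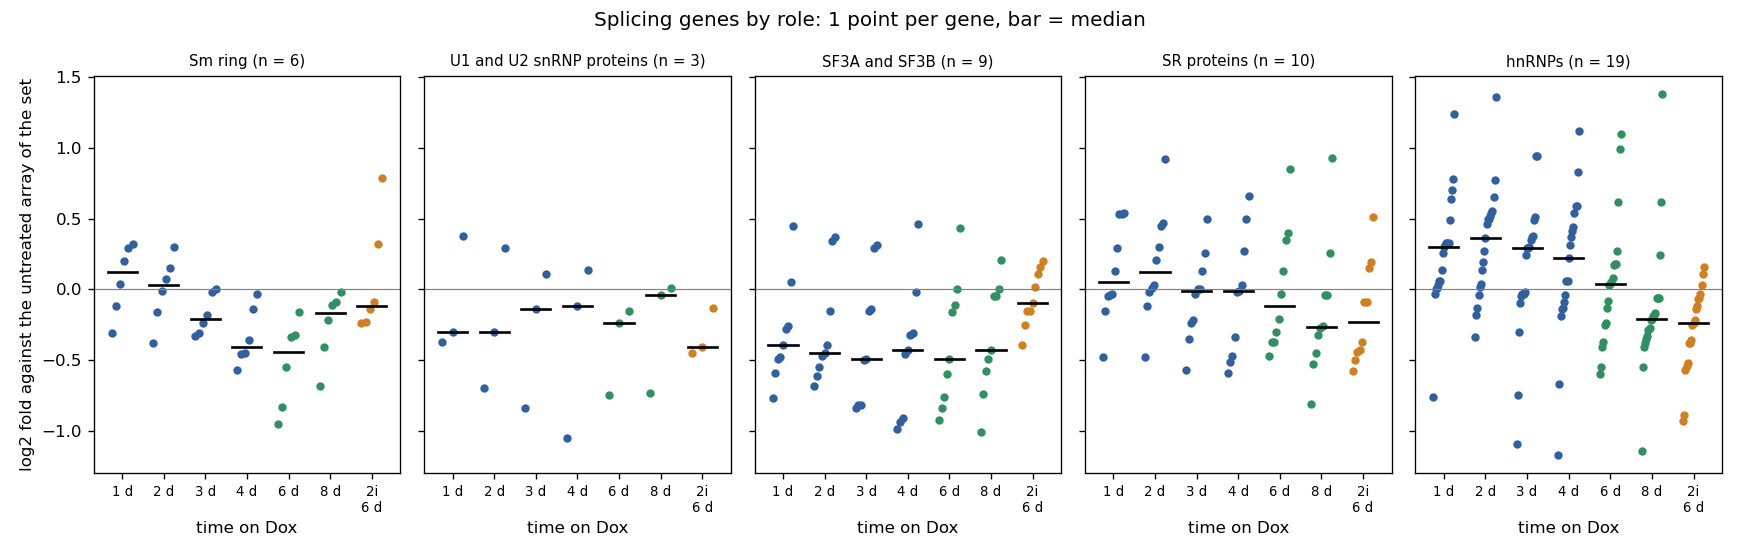
Log2 fold over the set's own untreated array (y axis) of the 47 genes by role, after 1 to 4 d of Dox in LIF+serum (blue), 6 and 8 d (green) and 6 d in 2i+LIF (orange), with 1 point per gene and a bar at the median. The SF3A and SF3B median lay between -0.49 and -0.39 at every time in LIF+serum and at -0.10 in 2i+LIF, while the hnRNP median went from 0.30 at 1 d to -0.21 at 8 d.

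The 19 hnRNP genes lay mostly above their untreated array at the early times. Their median log2 fold was 0.30 at 1 d, 0.36 at 2 d, 0.29 at 3 d and 0.22 at 4 d, with 16, 15, 11 and 12 genes above the untreated array, then 0.04 at 6 d and -0.21 at 8 d, when 3 of 19 were above it. Over all genes 41.2%, 40.2%, 42.4% and 41.8% were above it at 1 to 4 d, and 44.1% and 46.8% at 6 and 8 d. Among the hnRNPs the untreated arrays themselves differed. The second one was higher than the first in 16 of the 19 genes (median 0.57), and the untreated array in 2i+LIF was higher than the first in 17 of 19 (median 0.38). Over all genes these medians were -0.07 and -0.14, and over the 11513 genes that reach 6 on some array they were 0.09 and 0.10. For 10 of the 19 hnRNP genes (52.6%) the first untreated array was the lowest of the 8 arrays in LIF+serum, against 15.8% of all genes. With the second untreated array as the reference the hnRNP medians at 1 to 4 d turned to -0.23, -0.08, -0.25 and -0.32, and with the first one as the reference for 6 and 8 d they were 0.48 and 0.35. So the direction of this group rests on which untreated array is used, and that of SF3A and SF3B was the same with either.

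Within the hnRNPs *Hnrnph3* rose. It had 7.51 untreated and 8.29, 8.07, 7.80 and 8.10 at 1 to 4 d, then 8.46 untreated and 9.46 and 9.85 at 6 and 8 d. The first 4 Dox arrays all lay between the 2 untreated arrays, and 6 and 8 d lay above both. The slope was 0.15 (SE 0.04, limma adjusted p = 0.0401), with 1.51-fold at 4 d and 2.61-fold at 8 d. It did not pass without the first untreated, 2, 4, 6, 8 d or second untreated array (highest adjusted p = 0.638), and over the first set alone the slope was 0.07 (adjusted p = 0.683).

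Its relative *Hnrnph1* had 9.40 untreated and 10.64, 10.76, 10.34 and 10.51 at 1 to 4 d, then 10.83 untreated and 11.93 and 11.45, and did not pass (slope 0.12, adjusted p = 0.215). The mean of its 1 to 4 d arrays was 1.17 above the first untreated array (adjusted p = 0.0653), and the second untreated array was itself 1.43 above the first. Another relative, *Hnrnph2*, had 9.10 untreated and 9.16 at 4 d, and 9.67 untreated, 9.07 at 6 d and 8.53 at 8 d, 0.455-fold (slope -0.11, adjusted p = 0.0965). The 3 genes encode closely similar proteins, and whether their probes are shared was not tested.

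Of the 47 genes the gap between the untreated arrays in LIF+serum was largest in *Hnrnpl*, a regulator of CA-rich exons: 9.12 untreated and 7.95 at 4 d in the first set, then 10.94 untreated and 10.53 at 8 d in the second. In 2i+LIF it had 8.77 and 8.81. Its level was below the untreated array at all 6 times (0.444-fold at 4 d, 0.753-fold at 8 d; adjusted p = 0.198), while its second array set lay above the first throughout. *Hnrnpul2* had 8.34 untreated and between 9.04 and 9.28 at 1 to 4 d, then 9.24 untreated, 9.32 and 9.18, and *Hnrnpul1* had 9.95 untreated and 10.54 at 4 d, then 10.33, 10.50 and 9.98. *Hnrnpr* had 9.71 untreated and 10.15 at 4 d, then 10.24, 10.87 and 10.48. None of the 3 passed (limma adjusted p = 0.604, 0.864 and 0.292). *Hnrnpa1* and *Hnrnpk*, which encode general mRNA-binding hnRNPs, did not pass either (adjusted p = 0.544 and 0.882): *Hnrnpa1* had 10.03 untreated and between 9.95 and 10.37 at 1 to 4 d and *Hnrnpk* 11.70 and between 12.02 and 12.08, and in the second set they had 10.69, 10.45 and 10.50, and 11.92, 12.19 and 11.75.

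Comparing each set with its own untreated array by limma gave no splicing gene in either set. In the first set 0 of 47 were higher and 0 lower against 0.824% and 0.0495% of all genes called. At an unadjusted p under 0.05 there were 5 and 8 (10.6% and 17.0%), against 9.62% and 10.1% of all genes. In the second set 0 were higher and 0 lower, against 1.78% and 1.83%, and at the unadjusted p there were 3 and 8 (6.38% and 17.0%), against 11.4% and 12.7%. *Hnrnph3* was 1.19 higher in the second set (adjusted p = 0.051) and passed under some other settings.

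At single times, where there was 1 array on each side and no test, genes were counted at 1.5-fold. At 4 d 5 of the 47 were higher (*Hnrnph1*, *Hnrnph3*, *Hnrnpul1*, *Hnrnpul2* and *Srsf10*) against 14.6% of all genes, and 7 were lower (*Hnrnpdl*, *Hnrnpl*, *Sf3a1*, *Sf3b3*, *Sf3b5*, *Snrpa1* and *Srsf9*), also against 14.6%. At 6 d 4 were higher and 8 lower, against 13.3% and 15.3%. At 8 d 3 were higher and 6 lower, against 14.1% and 14.0%. Of the 47 genes 10.6%, 8.51% and 6.38% were higher at 4, 6 and 8 d, under the shares of all genes. The shares of lower ones were 14.9%, 17.0% and 12.8%, near those of all genes. At 8 d 40 of the 47 were below their untreated array with a median of -0.22, while over all genes the median was -0.04 and 46.8% were above it. Against the first untreated array the median of the 47 at 8 d was 0.03.

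The 92 further probe sets of these genes were read for direction. In 63 the slope had the sign of the brightest probe set. Of the 35 genes with several probe sets 16 had slopes of 1 sign and 19 of both. Among the 92, 1 rose and 3 fell with days of Dox, against 4.77% and 4.17% of all probe sets. Of the 3 that fell, 1 was a weak probe set of *Sf3a1* that lay between 2.49 and 3.31. The genes of the next 2 paragraphs were chosen after their values were seen.

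*Hnrnpab*, an RNA-binding protein of the A/B type, had 7 probe sets. Its brightest had 12.68 untreated and 12.50 at 4 d, then 12.58 untreated and 12.20 at 8 d (adjusted p = 0.241 from limma). Another fell from 9.62 through 9.05, 8.96 and 8.77 to 8.21 over 1 to 4 d, and from 9.33 to 7.69 and 7.55 (slope -0.25, adjusted p = 0.00362). 1 more lay between 12.81 and 13.15 on all arrays of the first set and between 10.21 and 10.96 on those of the second, and at 12.67 and 13.00 in 2i+LIF, a gap between the sets that the other 6 probe sets of the gene did not show. *Hnrnpd*, which encodes the AU-rich element binding protein AUF1, had a brightest probe set at 11.24 untreated and 11.21 at 4 d. Another rose from 6.25 through 6.92, 7.29 and 7.69 to 7.81, and from 7.94 to 9.28 and 9.10 (slope 0.21, adjusted p = 0.0182 from limma). So in both genes a dimmer probe set moved where the brightest did not pass, and no source used here says which transcripts each probe set reads.

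In the first set 5 of the 92 probe sets (5.43%, against 0.746% of all 45037 probe sets) were higher with Dox than on the untreated array: 1 each of *Hnrnpa2b1*, *Hnrnpd*, *Hnrnpr*, *Hnrnpu* and *Srsf3*, with differences of 1.91, 2.04, 1.35, 2.27 and 1.30 and adjusted p from 0.0402 to 0.0479 from limma. The probe set of *Hnrnpa2b1* had 7.41 untreated and 9.63, 9.53, 9.08 and 9.04 at 1 to 4 d, while its second untreated array had 9.59 and the one in 2i+LIF 8.68. That of *Hnrnpu* had 4.54 untreated and between 6.31 and 7.17 with Dox, with 7.35 on the second untreated array and 6.16 in 2i+LIF. The probe set of *Hnrnpd* was weak, with 1.88 untreated and between 3.58 and 4.37 at 1 to 4 d. It had 4.45 and 4.54 on the other untreated arrays. That of *Srsf3* had 6.08 untreated and between 7.22 and 7.68, with 7.51 and 7.75 on the other untreated arrays. In all 5 the first untreated array was the lowest of the 10 arrays, and the brightest probe sets of the same genes did not pass (adjusted p from 0.344 to 0.992). Against the second untreated array the 6 and 8 d values of these 5 probe sets did not pass (adjusted p from 0.0544 to 0.851).

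**Figure D3:**
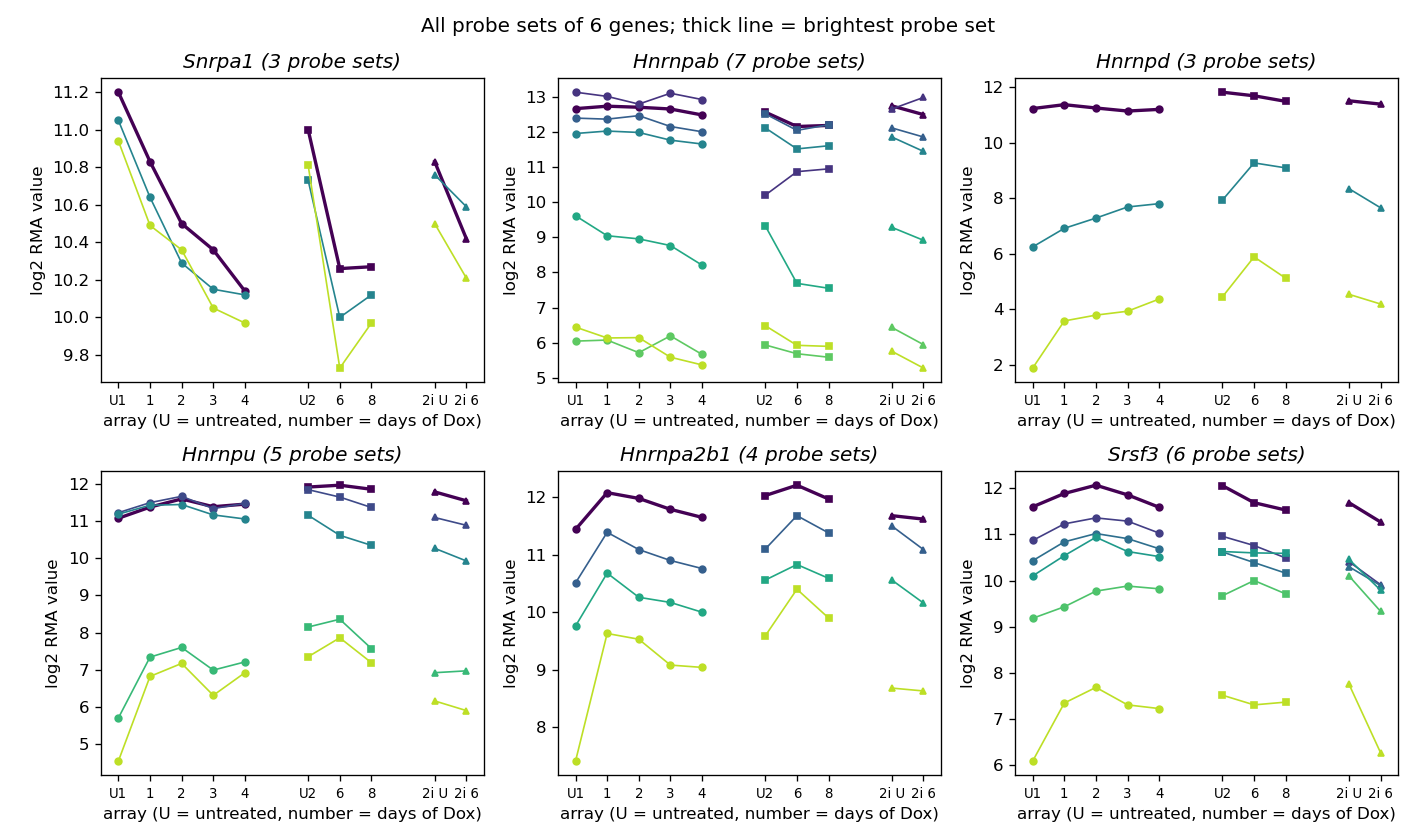
Level (log2 RMA value, y axis) of every probe set of 6 genes on the 10 arrays (x axis; U1 and U2 are the untreated arrays of the first and second set in LIF+serum, numbers are days of Dox, 2i U and 2i 6 the arrays in 2i+LIF), with the brightest probe set as a thick line and lines joining arrays of 1 set. All 3 probe sets of *Snrpa1* were lower on every Dox array in LIF+serum than on both untreated arrays, while in *Hnrnpa2b1* and *Hnrnpu* the dimmest probe sets were lowest on the first untreated array (7.41 and 4.54) and 1 probe set of *Hnrnpab* dropped from 13.15 to 10.21 between the untreated arrays.

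In 2i+LIF, with 1 array on each side and no test, 6 d of Dox left most of the 47 genes within 1.5-fold of their untreated level: 1 was 1.5-fold higher, against 6.66% of all genes, and 2 were 1.5-fold lower, against 7.47%. The median log2 fold of the 47 was -0.15, with 12 above 0, and that of all genes was 0.02, with 52.8% above 0. The SF3A and SF3B genes had a median of -0.10, and the hnRNPs had one of -0.24, with 16 of 19 below 0. *Sf3b3* had 10.48 untreated and 10.59 with Dox, *Sf3b5* 11.58 and 11.60, and *Snrpa1* 10.83 and 10.42. The untreated levels of *Sf3b3* and *Sf3b5* in 2i+LIF were thus 0.80 and 0.76 under the first untreated array in LIF+serum. They were 0.85 and 0.42 under the second.

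*Hnrnph1* went from 10.18 to 9.29 in 2i+LIF (0.541-fold) and *Hnrnph3* from 8.07 to 7.14 (0.525-fold), while at the same time in LIF+serum both were higher (2.14-fold and 1.99-fold). *Snrpg* went from 11.62 to 12.41 in 2i+LIF (1.73-fold) and was 0.564-fold in LIF+serum at 6 d, and its second probe set did the same, with 10.74 and 11.46 in 2i+LIF and 11.98 and 10.70 in LIF+serum. The second, dim probe set of *Hnrnph1* went from 6.22 to 5.42 in 2i+LIF and from 5.89 to 6.53 in LIF+serum. *Hnrnpa1* (0.672-fold), *Srsf1* (0.667-fold) and *Hnrnpk* (0.690-fold) were the next lowest in 2i+LIF, and *Srsf12*, *Snrpe*, *Sf3b4* and *Srsf9* the next highest, with folds of 1.42, 1.25, 1.15 and 1.14.

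**Figure D4:**
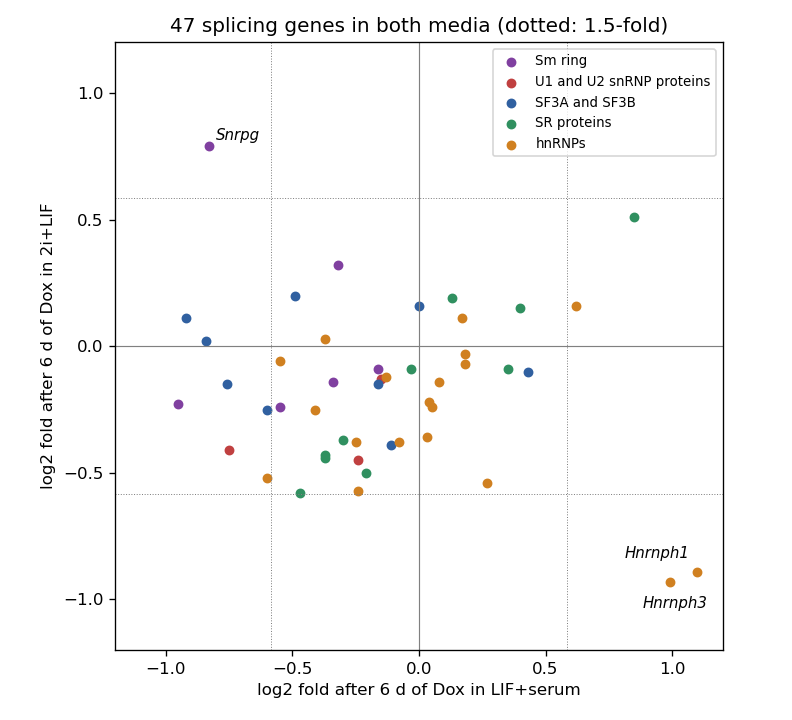
Log2 fold after 6 d of Dox in LIF+serum (x axis, second set) against that in 2i+LIF (y axis) for the 47 genes, coloured by role, with dotted lines at 1.5-fold. *Snrpg*, *Hnrnph1* and *Hnrnph3* are the 3 genes past 1.5-fold in both media, each in opposite directions.

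Other splicing genes were read from lists of known factors. Of 13 snRNP assembly factors measured, 0 rose and 2 fell. These were *Wdr77*, the partner of the methyltransferase PRMT5 that modifies Sm tails, with 11.27 untreated and 10.50 at 4 d and 11.15 untreated and 10.42 at 8 d (slope -0.13, adjusted p = 0.0373 from limma), and *Gemin8* of the SMN complex, with 7.29, 5.94, 7.06 and 5.60 on the same arrays (slope -0.23, adjusted p = 0.00697). *Wdr77* passed in 5 of 15 other settings (highest adjusted p = 0.369) and failed without each array in turn other than the 8 d one. *Gemin8* passed in 13 of 15, and with the mean of its probe sets the slope was -0.07 (adjusted p = 0.102). *Prmt5* itself had 11.22 untreated and 9.89 at 4 d, 10.18 untreated and 9.56 at 8 d, and did not pass (adjusted p = 0.0814), and neither did *Gemin5* (adjusted p = 0.0593). Of 23 LSm and other U snRNP proteins 0 rose and 2 fell: *Lsm6*, of the ring on U6 RNA, from 10.17 to 8.67 at 4 d and from 10.37 to 9.46 at 8 d (adjusted p = 0.0497), and *Txnl4a*, a U5 protein, from 10.95 to 9.66 and from 10.28 to 9.39 (adjusted p = 0.0323). They passed in 6 and 9 of the 15 other settings (highest adjusted p = 0.289 and 0.309), and with the mean of its probe sets *Txnl4a* had a slope of -0.05 (adjusted p = 0.291). Of all genes 5.75% rose and 5.33% fell.

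Of 21 genes of U2AF, the Prp19 complex and the catalytic step 3 rose and 1 fell, against 5.75% and 5.33% of all genes. *Cwc22*, which brings the exon junction complex to the spliceosome, went from 7.81 through 8.28, 8.48 and 9.81 to 10.79 over 1 to 4 d and from 8.50 to 11.65 and 11.17 (slope 0.46, adjusted p = 0.00815 from limma), and in 2i+LIF from 8.89 to 8.48. *Cdc5l*, a core of the Prp19 complex, had 11.36 untreated and 11.75 at 3 d, then 11.42 untreated and 12.38 at 8 d (slope 0.14, adjusted p = 0.0139), and *Slu7*, a second-step factor, rose by 0.12 per day (adjusted p = 0.0284). *Isy1* went from 8.36 to 6.66 at 4 d and from 7.94 to 6.16 at 8 d (slope -0.30, adjusted p = 0.0075). These 4 moved in opposite directions within 1 list. In 2i+LIF *Isy1* had 7.71 and 7.84.

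Of 17 SR kinases and SR-related genes 0 rose and 1 fell, against 5.75% and 5.33% of all genes. The 1 that fell was *Luc7l*, a U1-associated factor (9.54 untreated and 8.17 at 4 d, 9.30 and 8.14 at 8 d; slope -0.18, adjusted p = 0.016 from limma). With the mean of its probe sets *Luc7l* did not pass (slope -0.08, adjusted p = 0.126). *Clk4*, a kinase that phosphorylates SR proteins, had 6.43 untreated and 7.47 at 4 d, and 7.29 and 8.31 in the second set (adjusted p = 0.0692), and *Acin1* had 9.44, 8.62, 9.20 and 8.68 (adjusted p = 0.0653).

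Of 23 hnRNP-related genes and tissue regulators 0 rose and 5 fell, against 5.75% and 5.33% of all genes. *Ptbp1*, the polypyrimidine tract binding protein (hnRNP I), went from 11.92 to 11.15 at 4 d and from 11.43 to 10.40 at 8 d (slope -0.15, adjusted p = 0.0165 from limma). *Esrp1*, an epithelial splicing regulator, went from 8.89 to 7.77 and from 8.83 to 6.82 (slope -0.25, adjusted p = 0.00263), and *Pcbp4* was 0.277-fold at 4 d and went from 9.28 to 7.63 at 8 d (slope -0.30, adjusted p = 0.0117). The other two were *Esrp2* and *Elavl1*, with slopes of -0.23 and -0.11. In 2i+LIF *Esrp1* was lower already without Dox, at 5.03, and had 3.79 with it. Of 10 genes of nonsense-mediated decay, which removes the degraded variants named above, 0 rose and 1 fell, against the same shares of all genes. The 1 that fell was *Upf1* (slope -0.11, adjusted p = 0.0239 from limma). It passed in 10 of the 15 other settings, and without the array set term its slope was -0.01 (adjusted p = 0.95). *Upf2* and *Smg9* did not pass (adjusted p = 0.221 and 0.252). Leaving out the second untreated array, *Cdc5l*, *Cwc22*, *Isy1*, *Luc7l*, *Ptbp1*, *Esrp1*, *Pcbp4* and *Upf1* all failed the test (adjusted p from 0.245 to 0.458), as did *Wdr77*, *Gemin8*, *Lsm6* and *Txnl4a* (0.252 to 0.369). In that less precise fit their slopes kept their sign, and the lowest adjusted p of the 46 named genes was 0.245. The loss of these calls does not show that the changes rest on that array.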

How the data were processed

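RNA of *Max*-null ESCs was measured on 10 Affymetrix mouse genome arrays. The authors subtracted background and normalized with RMA (affy, R; versions not given in the sources used here), and the deposited values are log2. No source says which arrays RMA handled jointly, and it compresses weak signals. Of 45101 probe sets 64 controls were left out; 34945 of the other 45037 had 1 symbol in the platform annotation, 932 several and 9160 were not listed. 0 columns were left unused.

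From these log2 values, limma 3.58.1 (R 4.3.3) fitted the slope per day with the array set as a covariate (5 residual and 4.81 prior degrees of freedom), and in a second fit the mean of the Dox arrays minus the untreated array of each set and their difference (4 and 4.74). Benjamini-Hochberg adjustment ran over all probe sets at 0.05. Single times and 2i+LIF gave folds with no test. Tested on simulated data over 45037 probe sets, the trend fit called 69 of 100 probe sets given a slope of 0.25, 94 of 100 given 0.5 and 5 unchanged ones; a change of log2 1 was found for 4 of 100 (first set) and 0 of 100 (second set), and of log2 2 for 58 and 48. The number of arrays limits the precision. Figures and tables used Python 3.11.15, pandas 2.3.3, numpy 2.4.6 and matplotlib 3.10.9.

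Named genes are those that passed the trend, up to 4 per role by slope, the 5 highest and lowest at 4 d, 8 d and in 2i+LIF, up to 3 per list by p, and *Snrpn* and *Snrpb*; *Slu7*, *Elavl1*, *Esrp2*, *Prmt5*, *Sf3a2* and the genes named for a probe set were added after their values were seen. Members and lists were chosen with earlier results of these data known. Alternatives left out the array set term or 1 array, used log2(day + 1), kept probe sets that reached 6, repeated quantile normalization, used eBayes with trend and robust, averaged probe sets or changed the reference; the last 2 references and the first set alone were added after seeing the data.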

Additional observations from a re-analysis of the deposited data

Results flagged for a closer look

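*Hnrnph1*, *Hnrnph3* and *Snrpg* differed between the media after 6 d of Dox, with opposite signs. The log2 fold in LIF+serum minus that in 2i+LIF was 1.99 for *Hnrnph1* and 1.92 for *Hnrnph3*, both higher in LIF+serum and lower in 2i+LIF, and -1.61 for *Snrpg*, lower in LIF+serum and higher in 2i+LIF. With 1 array on each side the differences were not tested. For *Snrpg* the 8 d array in LIF+serum was 0.859-fold, nearer to its untreated array than the 6 d array.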

How the results depend on the processing

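The count of splicing genes that rose was 1, and between 0 and 1 when each array was left out in turn: it was 0 without the first untreated, 2, 4, 6, 8 d or second untreated array. It was 0 over the first set alone. The fit without the second untreated array was less precise, and no named gene had an adjusted p under 0.245 in it. The count that fell was 3, and between 0 and 6 when each array was left out: 0 without the second untreated array, 1 (*Sf3b3*) without the 1, 3, 4 or 6 d array, and 6 without the 8 d array (*Sf3a1*, *Snrpd3* and *Snrpg* joined). It was 4 without the first untreated array (*Hnrnph2* joined) and 2 without the 2 d array (*Snrpa1* was lost). Over the first set alone it was 2 (*Sf3b5* and *Snrpa1*). With the mean of probe sets it was 2 (*Sf3b5* was lost, adjusted p = 0.0546), without the array set term 2 (*Snrpa1* was lost, adjusted p = 0.0533), and with log2(day + 1) 4 (*Sf3a1* joined). In the second set the count of higher genes was 0, and 1 (*Hnrnph3*) with eBayes trend and robust, with the mean of probe sets, with probe sets that reach 6, and without the 1 or 4 d array (between 0 and 1 over the arrays left out). The counts for the first set, for lower genes in the second set and for the difference of the sets were 0 in all settings that could be fitted, and the range over the arrays left out was 0 to 0. Without the untreated array of a set the comparison of that set and the difference of the sets could not be fitted, and leaving out the other untreated array, alone in its group, leaves a set's comparison as it is. The median log2 fold at 4 d was -0.09, and 0.05 with the mean of probe sets. Of 689 slopes of 46 named genes under the alternatives 606 kept their side of the threshold, 19 passed newly and 64 no longer passed, and 29 that passed in neither case changed sign. No paired analysis was possible because the labels give the groups no shared replicate numbers. The causes were not tested.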
